A study of Mus musculus with 3 samples.

Results

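The cytosolic ribosomal protein genes were taken from the table of FPKM (fragments scaled to transcript length and to the mapped fragments of the library) of 3 mouse pancreatic tumour cell lines by their names. Entries starting with Rpl or Rps followed directly by a number were kept, together with Rplp0, Rplp1, Rplp2 and Rpsa, while the Rps6k kinases and entries named as pseudogenes were left out. This gave 87 genes of 22735. Of these, 46 encode proteins of the large subunit, 31 encode proteins of the small subunit and 9 are paralogs of such genes. The last, Rps19bp1, meets the name rule but encodes a binding partner of Rps19 and not a ribosomal protein. Averaged over the libraries, 83 of the 87 reached 1 FPKM and passed the filter used for differences, and the 4 that did not are paralogs.

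The lines are models of pancreatic ductal adenocarcinoma from a progression series named HI-Panc, and the labels give all 3 a transgenic genotype that includes p16-/-. They stand for a localized (HI-Panc-L), an invasive (HI-Panc-I) and a metastatic (HI-Panc-M) stage, with 1 library each, so every value below has n = 1, no replicate stands behind any difference and no test was made. As tissue the labels give liver for the metastatic, pancreatic tissue for the invasive and body wall for the localized line. It may be doubted whether these tissue labels are placed as meant, since the pancreas is named for the invasive and not the localized line. The groups here follow the stage label, and an exchange of the localized and invasive libraries was not tested. All 3 were cultured in DMEM with 10% serum. A treatment note common to the 3 samples mentions cobalt chloride (100 ng/ml, 24 h) for hypoxic models but leaves unsaid if the sequenced cells had received it, and no library labelled untreated was analysed here. The age of the animals, the number of clones and the promoter behind the transgene are not given in the sources used here.

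Steps in the low FPKM values gave depths of about 41.9, 37.6 and 40.1 (in units of 1e6 fragments) for the localized, invasive and metastatic libraries. Of 7 markers of skeletal muscle, 0 reached 1 FPKM in any library, and of 8 hepatocyte markers 1, Hnf4a, did so, with 11.9, 24.1 and 34.2 FPKM. Of 12 epithelial markers, 4, 10 and 9 reached 1 FPKM, with sums of 1196, 6360 and 6870 FPKM, and Ocln was at 0 in the localized library. Of 12 fibroblast markers, 10, 5 and 5 reached 1 FPKM, with sums of 668, 94.9 and 15.1 FPKM, and 0, 1 and 4 of them were at 0. Immune markers were low (sums of 4.88, 11.2 and 10.3 FPKM), as were endothelial (0.383, 0.633 and 0.303 FPKM) and acinar or islet markers (0.465 to 7.60 FPKM). The localized library therefore stood apart in its cell-identity markers in every comparison below that uses it. The part of these markers in the ribosomal protein results was not tested, and a bulk library cannot tell fewer cells of a type from less RNA per cell.

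The ribosome is built from ribosomal RNAs and a fixed set of proteins, most of them present in a single copy per particle. Ribosomal protein mRNAs are among the most abundant of growing cells. They begin with a run of pyrimidines called the TOP (terminal oligopyrimidine) motif, through which mTOR signalling and the RNA-binding protein Larp1 set their translation. Mammalian genomes also hold many processed copies of these genes, which arose from reverse-transcribed mRNA and remain close in sequence to their source. In short-read sequencing this makes the assignment of reads between source and copy uncertain.

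The 87 genes together held 118853 FPKM in the localized, 106660 FPKM in the invasive and 101916 FPKM in the metastatic library. As a share of all FPKM this was 20.8%, 18.5% and 18.0%, so the share was largest in the localized library. Of the 100 most abundant genes, 58, 54 and 54 were ribosomal protein genes. The large subunit genes contributed 63665, 56605 and 54134 FPKM and the small subunit genes 51679, 46612 and 44469 FPKM. In all 3 libraries 51 of the 87 genes had at least 1000 FPKM.

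The most abundant were Rps12, a small subunit protein, with 4264, 3986 and 3895 FPKM (values are given for the localized, then the invasive, then the metastatic library throughout), and Rplp1, an acidic protein of the ribosomal stalk, with 4110, 2555 and 2491 FPKM. Rpl41, the shortest protein of the ribosome, had 3184, 3142 and 2825 FPKM, and Rps18 had 3216, 2862 and 2637 FPKM. Rps2 had 2623, 2785 and 2869 FPKM and was the only 1 of these 5 with its lowest value in the localized library. Rps27rt, with 2263, 2204 and 1971 FPKM, was the sixth and is a copy of Rps27 described below. Among the 77 subunit genes the median was 1497, 1369 and 1274 FPKM, but the range ran from 5.34, 7.61 and 5.98 FPKM (Rps27 in each library) to the values of Rps12. FPKM is a level per length, which is why genes are set side by side here, but the values of genes with near-identical copies, Rps27 among them, are uncertain.

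**Figure D1:**
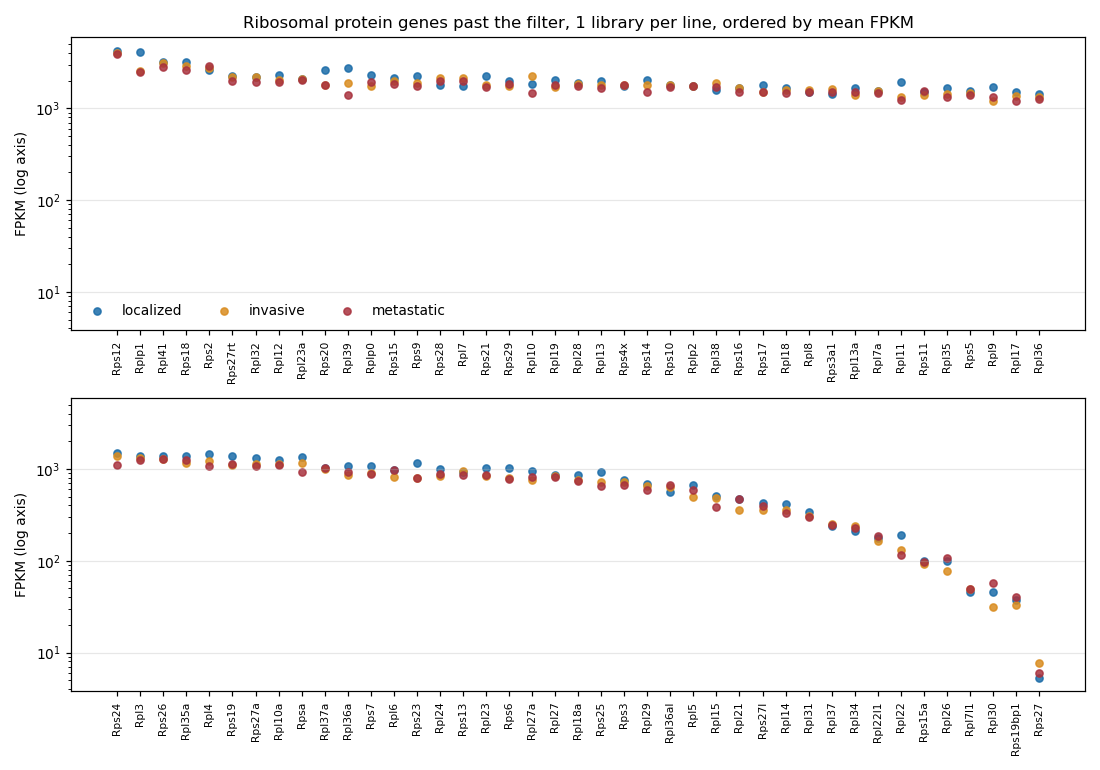
FPKM on a log axis of 82 of the 83 ribosomal protein genes past the filter, ordered by their mean from the upper left to the lower right, with 1 point per library. Most genes lie close to 1000 FPKM or above, and the lower tail ends with Rpl30, Rps19bp1 and Rps27.

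The low values of 4 members stood beside high values of near-identical copies. The coding sequences of the members were aligned to all GENCODE M21 transcripts, and a copy was another gene with at least 95% identity over at least 80% of the coding sequence. Of the 87 members, 77 had such a copy in the annotation (561 copies in all, up to 57 for Rpl21), but only 15 copies of 14 members are among the genes of the table. The coding sequence of Rps27, a small subunit protein, is shown because Rps27rt carries the same 252 bases with 0 differences, so that no read inside it can tell the genes apart:
Rps27 and Rps27rt: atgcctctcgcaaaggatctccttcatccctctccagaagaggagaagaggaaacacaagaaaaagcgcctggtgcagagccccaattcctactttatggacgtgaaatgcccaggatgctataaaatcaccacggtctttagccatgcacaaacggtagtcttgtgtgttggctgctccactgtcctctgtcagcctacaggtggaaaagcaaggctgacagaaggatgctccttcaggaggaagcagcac
For the next 3 pairs, 60 bases around the first difference are shown, with the differing base in capitals. Over the whole coding sequence Rpl30 and Gm12191 differ at 1 of 345 bases, Rpl26 and Gm15772 at 2 of 435 and Rpl34 and Rpl34-ps1 at 2 of 351.
Rpl30, bases 66 to 125: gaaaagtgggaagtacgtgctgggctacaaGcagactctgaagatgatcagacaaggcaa
Gm12191: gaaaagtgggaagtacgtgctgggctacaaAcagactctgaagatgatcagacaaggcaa
Rpl26, bases 147 to 206: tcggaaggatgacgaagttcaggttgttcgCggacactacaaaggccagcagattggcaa
Gm15772: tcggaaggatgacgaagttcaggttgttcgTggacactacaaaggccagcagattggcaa
Rpl34, bases 102 to 161: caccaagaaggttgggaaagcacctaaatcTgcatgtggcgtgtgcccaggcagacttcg
Rpl34-ps1: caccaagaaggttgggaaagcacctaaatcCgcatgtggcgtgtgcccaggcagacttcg

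Nearly all of the signal of these 4 pairs was listed under the copy. Rps27 (GRCm38 chromosome 3, 90212522 to 90213651, minus strand) had 5.34, 7.61 and 5.98 FPKM, and Rps27rt (chromosome 9, 114982366 to 114982739, minus strand) held 99.8%, 99.7% and 99.7% of the sum of both. Rpl30, a large subunit protein (chromosome 15, 34440505 to 34443640, minus strand), had 45.1, 31.3 and 57.6 FPKM, against 1392, 1359 and 1433 FPKM for Gm12191 (chromosome 11, 49678710 to 49679057, minus strand). Rpl26 (chromosome 11, 68901583 to 68906989, plus strand) had 98.6, 77.4 and 107 FPKM, against 1911, 1903 and 1761 FPKM for Gm15772 (chromosome 5, 3236431 to 3236868, plus strand). Rpl34 (chromosome 3, 130726831 to 130730398, minus strand) had 213, 236 and 226 FPKM, against 1776, 1761 and 1749 FPKM for Rpl34-ps1 (chromosome 6, 71124610 to 71124963, plus strand). GENCODE annotates the last 3 copies as processed pseudogenes and Rps27rt as protein-coding. In these pairs the level of the gene itself is therefore uncertain. The sum of both FPKM values is only a rough guide, since each value is scaled to its own gene's length and further annotated copies, such as all but 1 of the 12 of Rpl30, are not among the genes of the table.

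Differences of the source alone and of the sum with its copy were unlike in each of these pairs, least in that of Rpl34. Because the copy holds most of the sum, a change of the source would hardly show in it, and which of the values follows the source gene was not tested. Rpl30 alone differed by 0.86 on the log2(FPKM + 1) scale between the metastatic and invasive libraries, the largest difference of any member in that pair, whereas Rpl30 plus Gm12191 (1437, 1391 and 1490 FPKM) differed by 0.10. Rps27 alone was 0.44 higher in the invasive than the localized library, but the sum with Rps27rt (2269, 2212 and 1977 FPKM) differed by -0.04. Rpl26 alone was 0.46 higher in the metastatic than the invasive library, and its sum with Gm15772 (2009, 1980 and 1868 FPKM) differed by -0.08. Rpl34 alone was 0.15 higher in the invasive than the localized library, and its sum with Rpl34-ps1 (1990, 1997 and 1975 FPKM) differed by 0.01. For metastatic minus invasive, Rpl34 alone differed by -0.06 and the sum by -0.02. Smaller parts lay with Rpl31-ps12 (176, 168 and 156 FPKM, beside 338, 308 and 298 FPKM for Rpl31) and with Rpl14-ps1 (175, 152 and 150 FPKM, beside 419, 355 and 333 FPKM for Rpl14). Of the 7 subunit genes below 300 FPKM on average, a line drawn after the values were seen, 5 had a copy in the table, against 7 of the 70 others. Counting all annotated copies, 7 of the 7 and 65 of the 70 had a copy, with a median of 5 copies in both groups.

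**Figure D2:**
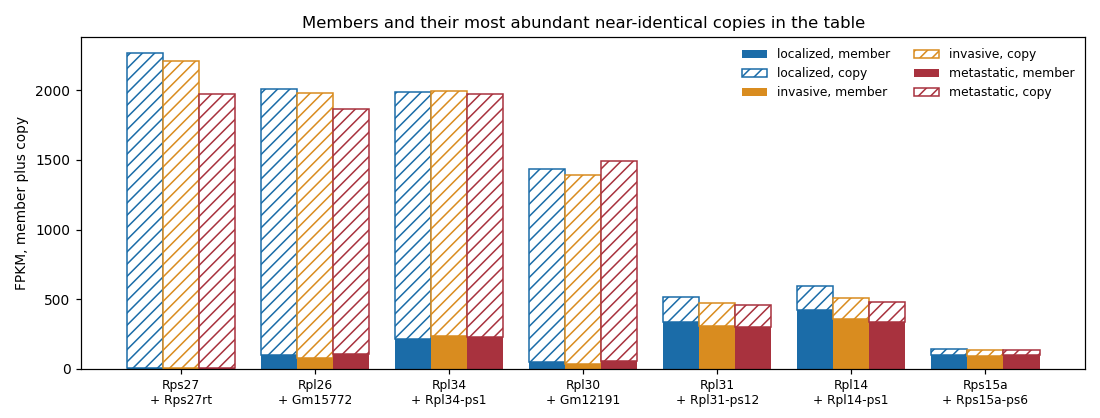
FPKM of members (filled) stacked with their most abundant near-identical copy in the table (hatched), 1 bar per library. For Rps27, Rpl26, Rpl34 and Rpl30 the filled part is a small foot of the bar, and for Rps27 it is barely visible.

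Differences between libraries were small for the whole set. They are given as differences in log2(FPKM + 1), and a gene was called higher or lower at 2-fold. No ribosomal protein gene reached 2-fold in any pair (0 of 83), while 8.78% of all 11404 genes past the filter were 2-fold higher and 6.07% 2-fold lower in the invasive than the localized library. For metastatic against localized these shares were 9.08% and 7.29%, and for metastatic against invasive 1.33% and 1.67%. The SD of the differences over the 83 genes was 0.22, 0.23 and 0.19 for invasive minus localized, metastatic minus localized and metastatic minus invasive, against 0.94, 1.02 and 0.41 over all genes. Ribosomal protein genes thus varied over a narrow range beside all genes, but so did related lists. The SD was 0.26, 0.29 and 0.21 over 79 ribosome biogenesis genes and 0.31, 0.31 and 0.16 over 77 mitochondrial ribosomal protein genes.

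Within that range most members had a higher value in the localized library than in either of the others. The median difference was -0.14 for invasive minus localized, against 0.00 over all genes, and 67 of 83 members were below 0, against 50.2% of all genes. For metastatic minus localized the median was -0.18 (0.00 over all genes), with 66 of 83 below 0 against 49.6%. These comparisons share the localized library and are not independent. Between the metastatic and invasive libraries the median was -0.05 (-0.01 over all genes), with 55 of 83 below 0 against 51.4%. The highest of the 3 values was in the localized library for 62 members, in the invasive for 13 and in the metastatic for 8. Over all genes past the filter, 41.6% had their highest value in the localized library.

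At a threshold of 1.2-fold, in the pairs with the localized library, the share of lower members was close to that of all genes and the share of higher members was below it. In the invasive against the localized library 22 of 83 members were at least 1.2-fold lower, where 27.1% of all genes were, and 1 of 83 higher, where 28.4% of all genes were. In the metastatic against the localized library 26 were lower (background 28.4%) and 1 higher (background 29.6%). In the metastatic against the invasive library 7 were lower (background 16.7%) and 4 higher (background 14.6%). The higher members were Rps27 in the first pair and Rpl30 in the second, both with most of their signal under a copy. With copies added to their source 0 members were 1.2-fold higher in either pair. A change of the source would hardly show in the sums of Rps27 and Rpl30, so the sums cannot decide whether either gene was higher.

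**Figure D3:**
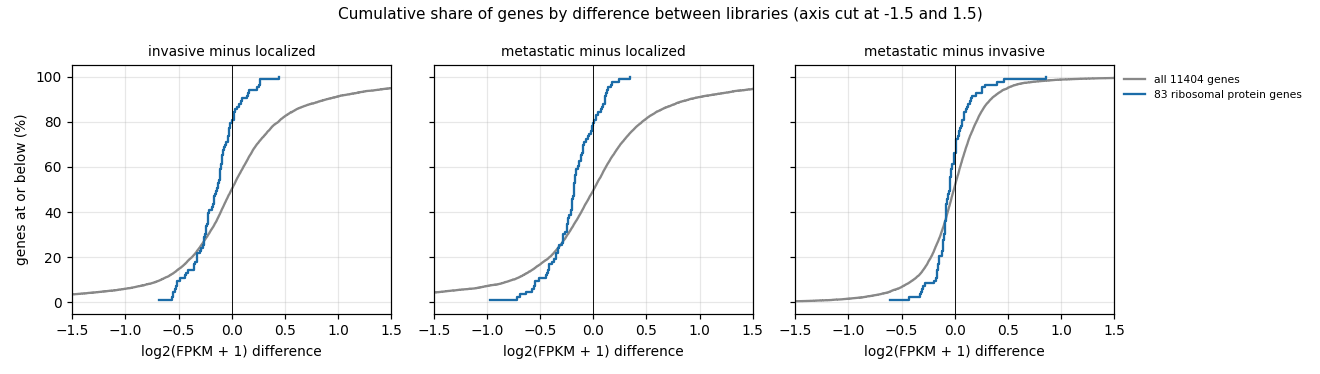
Cumulative percentage of genes against the difference in log2(FPKM + 1), for all 11404 genes past the filter (grey) and the 83 ribosomal protein genes (blue), with 1 panel per pair of libraries. The blue curves are steeper and cross 0 near 80.7%, 79.5% and 66.3%, whereas the grey curves cross it near 50.2%, 49.6% and 51.4%.

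The median was below 0 in both subunits and all 3 pairs. For the 46 large subunit genes the median was -0.15, -0.18 and -0.05 in the 3 pairs (invasive minus localized, metastatic minus localized, metastatic minus invasive), with 39, 39 and 30 below 0. For the 31 small subunit genes it was -0.12, -0.20 and -0.08, with 24, 25 and 24 below 0. The counting error was small beside these differences for most members, since all but Rps27 and Rpl30 had over 1000 estimated fragments in every library, but it does not include the variation between cultures, which was not measured. Transcripts of the members are short, with a median of 681 bases against 2774.5 for other genes past the filter, and FPKM of short transcripts depends on the fragment lengths of a library. Other genes with a mean of at least 100 FPKM and transcripts of at most 1000 bases (209 genes) had medians of -0.03, -0.03 and 0.01 in the 3 pairs. Those with longer transcripts (577 genes) had 0.05, 0.05 and -0.01. The 209 genes had median levels of 195, 199 and 195 FPKM, well below the 1462, 1326 and 1259 FPKM of the members. The part of transcript length in the differences was not tested.

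In the stalk, which recruits the translation factors, 2 of 4 members were 1.2-fold lower in both the invasive and the metastatic than in the localized library (background 27.1% and 28.4%). Rplp1 (GRCm38 chromosome 9, 61913284 to 61914542, minus strand) had 4110, 2555 and 2491 FPKM, so the localized library was high and the other 2 were close. The ratio to the localized library was 0.622 (95% counting interval 0.615 to 0.629, which here and below covers counting error in estimated fragments only) in the invasive library. In the metastatic library it was 0.606 (0.599 to 0.613). Its partner Rplp2, with which it forms the stalk dimers, had 1771, 1743 and 1755 FPKM, with ratios of 0.984 and 0.992. Rplp0, the base on which the dimers sit, had 2334, 1735 and 1917 FPKM, lowest in the invasive library. Rpl12, next to the stalk base, had 2289, 2015 and 1948 FPKM. The FPKM of Rplp1 was thus above that of Rplp2 in each library, by most in the localized library.

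Rpl5 and Rpl11 form a particle with the 5S ribosomal RNA and bind Mdm2, the ubiquitin ligase of Trp53, when ribosome assembly fails. Rpl11 (chromosome 4, 136028265 to 136053428, minus strand) had 1935, 1320 and 1244 FPKM and was high in the localized library alone, with ratios to it of 0.682 (0.674 to 0.691) and 0.643 (0.635 to 0.651). Rpl5 had 673, 497 and 594 FPKM, lowest in the invasive library. Rpl23 and Rps7 also bind Mdm2 and had 1013, 837 and 855 FPKM and 1076, 910 and 880 FPKM. These 4 were highest in the localized library, as were 62 of the 83 members and 41.6% of all genes past the filter. Rpl26, the last of the 5 on this list, is uncertain because of Gm15772. Of 8 genes of Trp53 itself, its regulators and its targets, 0 were past 2-fold in any pair. Among all genes, 8.78% were 2-fold higher and 6.07% lower in the invasive than the localized library. The metastatic library had 9.08% higher and 7.29% lower beside the localized, and 1.33% and 1.67% beside the invasive library. For a list of 8 genes, a count of 0 therefore says little. At 1.2-fold, 4 of the 8 were lower and 0 higher in the invasive than the localized library (background 27.1% and 28.4%). In the metastatic library, 4 of the 8 were lower and 2 higher than in the localized library (background 28.4% and 29.6%). In the metastatic against the invasive library 6 of the 8 were higher and 0 lower (background 14.6% and 16.7%), with a median of 0.37. Mdm2 had 51.7, 30.1 and 40.3 FPKM, Trp53 123, 129 and 115 FPKM and the cell cycle inhibitor Cdkn1a (chosen after its values were seen, as was Trp53) 108, 116 and 150 FPKM.

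The largest difference of any member against the localized library was in Rpl39, a small protein at the exit tunnel of the large subunit (chromosome X, 37082520 to 37085402, minus strand). It had 2766, 1908 and 1414 FPKM, a different level in each library, and was 0.97 lower in the metastatic than the localized library on the log2 scale, just short of 2-fold (past it when the libraries were rescaled to an equal median or upper quartile). The ratio was 0.511 (0.504 to 0.518). Rpl39 has 9 annotated near-identical copies without FPKM values here, and how reads were shared with them was not tested. In the small subunit, Rps20 (chromosome 4, 3831334 to 3835665, minus strand) had 2625, 1782 and 1800 FPKM, and Rps23, a protein of the decoding centre, 1159, 788 and 792 FPKM. In both the localized library was high and the other libraries were close to each other. Rpl9 had 1727, 1201 and 1337 FPKM and Rpl22 189, 132 and 117 FPKM. Rpsa, also known as the laminin receptor precursor, had 1364, 1147 and 926 FPKM, lowest in the metastatic library.

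Of the 17 members mutated in Diamond-Blackfan anaemia, a red cell disorder of ribosomal protein genes, 4 and 6 were 1.2-fold lower in the invasive and metastatic libraries against the localized, near the background of 27.1% and 28.4%. In these pairs 1 and 0 were higher (background 28.4% and 29.6%), and the 1 was Rps27. Its sum with Rps27rt differed by -0.04, but Rps27rt holds nearly all of that sum. Rps28 had 1778, 2123 and 1991 FPKM, and Rpl7 had 1764, 2116 and 1989 FPKM. Rpl38 had 1589, 1870 and 1716 FPKM. In Rps28, Rpl7 and Rpl38 the localized library was lowest, and the invasive library was 0.26, 0.26 and 0.23 higher on the log2(FPKM + 1) scale, short of the 1.2-fold threshold. Rpl10, which joins the large subunit late in assembly (chromosome X, 74270812 to 74273135, plus strand), had 1865, 2238 and 1464 FPKM. It was thus highest in the invasive and lowest in the metastatic library. Its difference of -0.61 was the largest decrease between these 2 libraries (ratio 0.654, 0.646 to 0.662). Rpl10 also has 9 annotated near-identical copies without FPKM values here, and how reads were shared with them was not tested. Rps24 (1483, 1391 and 1111 FPKM) and Rpl15 (511, 478 and 384 FPKM) had differences of -0.32 and -0.32 between the metastatic and invasive libraries. In the same pair Rpl39, Rpsa and Rps27 had differences of -0.43, -0.31 and -0.30. Rps14 (2038, 1810 and 1493 FPKM, chosen after its values were seen) differed by -0.28. Rpl21 had 470, 354 and 467 FPKM and was 0.40 higher in the metastatic than the invasive library. With its copy in the table, BC004004, the difference was 0.38, but that copy held only 4.0%, 5.6% and 4.2% of the sum. The other annotated copies of Rpl21 are not among the genes of the table.

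**Figure D4:**
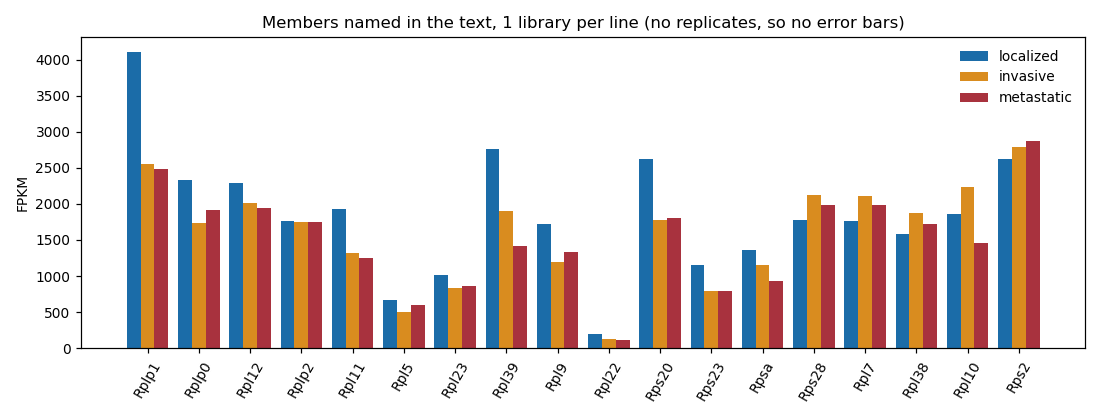
FPKM of 18 members named in the text, with 1 bar per library and no error bars because each line has 1 library. The localized bar is the tallest for the stalk genes, Rpl11, Rpl39, Rps20 and Rps23, and the shortest for Rps28, Rpl7, Rpl38 and Rps2.

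The paralogs fell into expressed and silent genes. Rpl22l1, a paralog of Rpl22, had 176, 163 and 188 FPKM, so that it lay below Rpl22 in the localized library (189 FPKM) and above it in the invasive and metastatic libraries (132 and 117 FPKM). Rpl36al had 566, 633 and 672 FPKM, lowest in the localized library, whereas Rpl36a had 1086, 865 and 916 FPKM, highest there. Rps27l, a paralog of Rps27 known as a Trp53 target, had 421, 361 and 394 FPKM. Rpl7l1, a paralog of Rpl7, had 45.9, 49.2 and 49.7 FPKM. None of the 5 paralogs past the filter, these 4 and Rps27rt, reached 1.2-fold in any pair. Among all genes, 27.1% were at least 1.2-fold lower and 28.4% higher in the invasive than the localized library. The metastatic library had 28.4% lower and 29.6% higher beside the localized, and 16.7% and 14.6% beside the invasive library. The distance from these shares was not tested, and 5 genes are few. The value of Rps27rt is also uncertain, since its coding sequence is the same as that of Rps27.

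The other 4 paralogs were at the detection limit. Rpl10l, the testis paralog of Rpl10, was at 0 in all 3 libraries, where 3 fragments would have given 0.070, 0.078 and 0.073 FPKM. Rpl39l, the testis paralog of Rpl39, was at 0.035, 0.039 and 0 FPKM, and the muscle paralog Rpl3l at 0, 0 and 0.027 FPKM, each below the value of 3 fragments. Rps4l, which GENCODE annotates as a transcribed processed pseudogene, was at 0, 0 and 0.060 FPKM, also below the value of 3 fragments. Their expressed counterparts Rpl10, Rpl39 and Rpl3 (1395, 1326 and 1244 FPKM) and Rps4x (1770, 1791 and 1782 FPKM) were abundant. Rps4x was among the least variable members, with differences of 0.02, 0.01 and -0.01 in the 3 pairs. The binding partner Rps19bp1 had 37.2, 32.7 and 40.2 FPKM.

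Promoter sequences from RefSeq (GRCm38.p6, 250 bases before to 50 after the annotated start) were found for 66 of the 87 genes. A run of at least 8 bases that are all C or T, starting with C and read on the gene's strand from 10 bases before to 50 after the start, was present in 45 of the 66 (68.2%), against 18.2% of 8615 other genes past the filter and 18.9% of all 27025 genes with a promoter sequence. The 6 windows shown, 30 bases on each side of the start, belong to members with large differences in either direction, and capitals mark the longest run of at least 5 such bases in the window, or the first of equal length:
Rpl11, chr4:136053364-136053423, minus strand: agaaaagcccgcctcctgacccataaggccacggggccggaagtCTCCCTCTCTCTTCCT
Rpl39, chrX:37085193-37085252, minus strand: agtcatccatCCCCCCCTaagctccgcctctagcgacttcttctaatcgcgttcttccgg
Rps23, chr13:90923092-90923151, plus strand: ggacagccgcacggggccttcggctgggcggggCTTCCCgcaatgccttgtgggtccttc
Rpl9, chr5:65391402-65391461, minus strand: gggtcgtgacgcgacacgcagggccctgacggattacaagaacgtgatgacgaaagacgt
Rpl38, chr11:114668550-114668609, plus strand: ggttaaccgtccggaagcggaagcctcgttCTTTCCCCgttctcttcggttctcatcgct
Rps28, chr17:33824533-33824592, minus strand: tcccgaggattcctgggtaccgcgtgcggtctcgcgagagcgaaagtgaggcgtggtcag
In Rpl38 the run began at the annotated start. Rpl39 has another run of the same length after its start, cttcttct, which is not in capitals. In Rpl9 and Rps28 no such run lay in the window, which says only that these letters are not there.

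Members with and without the run of at least 8 bases differed little in their shift. The 44 members past the filter with it had medians of -0.14, -0.18 and -0.05 in the 3 pairs, and the 19 without it had -0.14, -0.18 and -0.08. The 20 members with no promoter sequence had -0.14, -0.18 and -0.05. Of motifs searched on both strands of these promoter sequences, CTTTCC, which can lie within such a run, was in 54.5% of members, 30.2% of the 8615 other genes past the filter and 29.3% of all genes. CCGGAAG, the core bound by ETS factors such as Gabpa, was in 39.4%, 21.1% and 9.93% of these, and TCTCGCGA in 16.7%, 2.53% and 1.13%. For the next 3 motifs the direction depended on which genes were the reference. GGGCGG, the core bound by Sp1, was in 62.1%, 71.0% and 38.2%, TATAAA in 10.6%, 8.50% and 15.7%, and the E-box CACGTG, bound by Myc and Max, in 9.09%, 12.03% and 8.09%. The members lie on 19 chromosomes, with at most 14 on any of them.

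Fau, whose name lies outside the rule, encodes a small subunit protein made as a fusion with a ubiquitin-like protein. It had 2022, 1458 and 1221 FPKM, differences of -0.47 and -0.73 against the localized library.

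Elongation factor genes, many of which also carry TOP motifs, were also mostly lower against the localized library. Of 9 past the filter, 5 were at least 1.2-fold lower and 1, the kinase Eef2k, higher in both the invasive and the metastatic than in the localized library, with medians of -0.34 and -0.28 and 0.02 for metastatic minus invasive. Over all genes 27.1% and 28.4% were lower and 28.4% and 29.6% higher in these comparisons with the localized library. Eef1a1, which brings aminoacyl-tRNA to the ribosome, had 6824, 5409 and 4888 FPKM, and Eef1g, a subunit of its exchange factor, 1124, 817 and 778 FPKM. Eef2 (chosen after its values were seen), which drives translocation, had 1240, 1354 and 1323 FPKM, highest in the invasive library. Of 13 other genes with TOP mRNAs, 4 were 1.2-fold lower and 1 higher in the invasive than the localized library, with a median of -0.09. In the metastatic against the localized library 3 were lower and 1 higher, with a median of -0.08, so the counts of lower genes were near the background in both. Npm1, a nucleolar chaperone, had 1130, 767 and 859 FPKM, and Eif3f went the other way with 180, 338 and 303 FPKM. In both lists 0 members passed 2-fold in any pair. Against the localized library, 8.78% of all genes were 2-fold higher and 6.07% lower in the invasive, and 9.08% and 7.29% in the metastatic library. Between the metastatic and invasive libraries these shares were 1.33% and 1.67%. With lists this short, a count of 0 says little.

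Ribosome biogenesis genes, which encode the factors that process ribosomal RNA and assemble the subunits, were lower in the invasive library by their median. Of 79 past the filter, 37 were at least 1.2-fold lower and 1 higher in the invasive than the localized library (background 27.1% and 28.4%), with a median of -0.23. For the metastatic against the localized library the counts were 25 lower and 6 higher (background 28.4% and 29.6%), with a median of -0.12. Between the metastatic and invasive libraries 17 were higher and 2 lower (background 14.6% and 16.7%), with a median of 0.12, while the ribosomal protein genes had a median of -0.05 in that pair. Noc3l had 11.3, 5.72 and 6.55 FPKM and Lyar 29.99, 16.8 and 26.6 FPKM, both lowest in the invasive library. Taf1d (48.3, 30.1 and 26.6 FPKM) and Ppan (32.8, 23.9 and 18.0 FPKM) were lowest in the metastatic library. Mitochondrial ribosomal protein genes (77 past the filter) had medians of -0.07, 0.02 and 0.13, with 18, 12 and 2 at least 1.2-fold lower and 7, 14 and 12 higher, against 27.1%, 28.4% and 16.7% lower and 28.4%, 29.6% and 14.6% higher over all genes. The metastatic library was thus the higher of the 2 for biogenesis and mitochondrial ribosomal protein genes by their medians, and the lower for the cytosolic ribosomal protein genes, but these differences between lists were not tested.

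Initiation factor genes (31 past the filter) had medians of -0.11, 0.02 and 0.04, with 6, 6 and 2 at least 1.2-fold lower (background 27.1%, 28.4% and 16.7%) and 0, 2 and 5 higher (background 28.4%, 29.6% and 14.6%). Of 23 regulators of mTOR and of TOP mRNAs, 3 were 2-fold higher in the invasive and 4 in the metastatic than in the localized library, and 0 were 2-fold lower (background 8.78% and 9.08% higher, 6.07% and 7.29% lower). Rps6ka1, a kinase that phosphorylates ribosomal protein Rps6, had 9.07, 49.9 and 62.4 FPKM, and Larp1b, a relative of Larp1, 4.15, 13.8 and 18.3 FPKM. Ddit4, an mTOR inhibitor, had 39.2, 110.1 and 89.1 FPKM, and Deptor, another, 2.01, 3.74 and 6.01 FPKM. Larp1 itself (chosen after its values were seen, as were Mtor and Myc) had 33.1, 43.3 and 44.3 FPKM and Mtor 9.21, 7.89 and 8.82 FPKM. Of 19 transcription factors known to act on ribosomal protein genes or through Myc, 2 were 2-fold higher and 0 lower in the invasive than the localized library, and 3 were higher and 1 lower in the metastatic, where 8.78% and 9.08% of all genes were higher and 6.07% and 7.29% lower. Mycl had 4.25, 13.5 and 11.7 FPKM and Mycn 0.208, 2.42 and 2.03 FPKM, whereas Myc had 59.1, 57.6 and 49.6 FPKM. Gabpa (also chosen after its values were seen) had 10.03, 15.2 and 17.9 FPKM. E2f1 had 33.0, 20.3 and 15.9 FPKM. Of 14 genes of ribosome quality control, 1 was 2-fold higher in each comparison with the localized library, near the background of 8.78% and 9.08%. It was the ubiquitin ligase Ltn1, with 5.05, 11.4 and 13.6 FPKM.

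**Figure D5:**
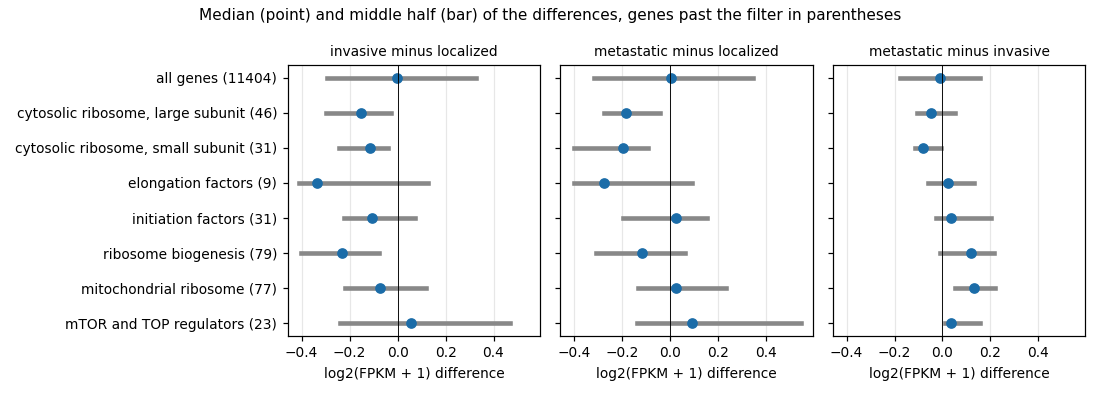
Median (point) and interquartile range (bar) of the differences in log2(FPKM + 1) for gene lists of the translation machinery, with 1 panel per pair of libraries and the number of genes past the filter in parentheses. The medians of both cytosolic subunits lie left of 0 in each panel, whereas those of ribosome biogenesis and the mitochondrial ribosome lie right of 0 in the last panel, where the bars of the large subunit and of ribosome biogenesis cross 0.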

How the data were processed

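RNA-seq libraries of 3 cell lines were prepared with the Illumina TruSeq kit from 1 ug of total RNA, per the labels' protocols. The authors deposited 1 table of FPKM per gene, with a column per library; Cufflinks 2.2.1, STAR 2.5.2a, FastQC 0.11.2 and the GRCm38 build are listed, without their roles, per the submitters' processing notes. No source used here gives how reads that fit several places were shared or whether strand was used, so antisense and overlapping genes cannot be told apart. The lowest deposited FPKM was 0.1 in each column, and 0.1 was subtracted from every value. Of 22784 rows, 27 with date numbers as names and 22 short RNAs were left out, and the groups follow the stage label.

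Differences were computed in log2(FPKM + 1), which understates folds of low genes, over genes with a mean of at least 1 FPKM (11404). Calls were made at 2-fold and 1.2-fold. Depth was estimated from steps of low values and GENCODE M21 lengths: for 83.3% to 85.0% of genes below 0.1 FPKM, the ratio between libraries matched whole fragments to 0.02 (log2). Intervals are exact Clopper-Pearson at 95% on estimated fragments. Copies were found with BLAST+ 2.17.0, and values were computed with Python 3.11.15, pandas 2.3.3 and scipy 1.17.1. On simulated data with planted changes, only the differences and the 2-fold calls were tested. The 1.2-fold calls, depths, intervals and copies were not. Members and lists were chosen with earlier results of these data known. The text could name the 6 members with the largest differences in each direction per pair, the 6 highest and lowest levels, the stalk, Mdm2-binding and paralog genes, and 4 genes per other list. A further engineered allele and the values of some single genes are not reported here, although summary counts include all members. Alternative settings are given in the closing section.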

Additional observations from a re-analysis of the deposited data

How the results depend on the processing

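The median differences of the ribosomal protein genes stayed below 0 in all 3 pairs under each of the 12 alternatives: -0.20 to -0.12 for invasive minus localized, -0.23 to -0.16 for metastatic minus localized and -0.06 to -0.02 for metastatic minus invasive. Rescaling to an equal median moved the median of all genes by less than 0.1 and raised the members 1.2-fold lower in the invasive against the localized library from 22 to 34. Rescaling to an equal median or an equal upper quartile put 1 member past 2-fold lower in the metastatic against the localized library, and rescaling to an equal sum gave 2 members 1.2-fold higher there. A filter at 10 FPKM gave 0 members 1.2-fold higher in the invasive against the localized library. The alternatives with copies, and with genes outside the name rule added, were chosen after seeing the data. Adding copies to their source gave 0, 0 and 2 members 1.2-fold higher in the 3 pairs, and leaving out members with a copy in the table gave 0, 0 and 1. Adding copies also turned Rps27 from 0.44 to -0.037 for invasive minus localized and Rpl26 from 0.46 to -0.084 for metastatic minus invasive, and the cause was not tested. The share of all FPKM ranged from 20.7% to 21.7%, 18.5% to 19.5% and 18.0% to 19.0% in the order localized, invasive, metastatic. Of 900 alternative values of named members, 883 stayed within 0.1 (log2) of the reported value. No paired analysis was possible because each line has 1 library. Depth limits the silent paralogs, Rps27 and Rpl30. The values of Rps27 and Rpl30 are also limited by their near-identical copies, which more depth alone need not resolve. The lack of replicates limits every comparison.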

Other observations

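Among the initiation factors, Eif3j1, which encodes a loosely bound subunit of eIF3, had 5.94, 6.88 and 0.035 FPKM in the localized, invasive and metastatic libraries. It was the only 1 of the 31 past 2-fold, being lower in the metastatic than in the localized and invasive libraries (background 7.29% and 1.67%). Its relative Eif3j2 (chosen after its values were seen) had 24.6, 24.8 and 31.6 FPKM, and the sum of both was 30.5, 31.7 and 31.7 FPKM. How reads were shared between Eif3j1 and Eif3j2 was not tested, so the value of either gene alone is uncertain.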
